A study of Arabidopsis thaliana with 44 samples.

Results

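Root hairs are tubular outgrowths of single epidermal cells of the root, and 10 Arabidopsis genes that act in them were followed: RHD6 (AT1G66470), RSL4 (AT1G27740), RSL2 (AT4G33880), RHD2 (AT5G51060), EXPA7 (AT1G12560), EXPA18 (AT1G62980), COBL9 (AT5G49270), LRX1 (AT1G12040), PRP1 (AT1G54970) and PRP3 (AT3G62680). They were picked out by gene ID from the 32833 genes listed, and all 10 were present in both expression tables. A fixed set of epidermal cells becomes hair cells. In these cells the basic helix-loop-helix (bHLH) factor RHD6 starts the outgrowth, the related factors RSL4 and RSL2 drive its elongation, and the growing tip needs reactive oxygen from the NADPH oxidase RHD2 and wall proteins that loosen or build the new wall. N6-methyladenosine (m6A) is a methyl mark on adenosines of mRNA that is set by a writer complex with MTA as its catalytic subunit.

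The study profiled poly(A) RNA of the Col-0 accession in 9 tissues with 2 biological replicates each. Seedlings were taken at 7 days and shoots and roots at 14 days, all from plates, rosette leaves at 30 days from soil, cauline leaves, flowers, stems and siliques after flowering, and seeds when dry. A second experiment set Col seedlings beside 8-day mta seedlings, again with 2 replicates each. The mta line (ABI3::MTA/mta) lacks the native writer gene and carries MTA under the ABI3 promoter, which is active in embryos, so it is a line with reduced and not absent MTA. The methods give 7 days for seedlings in general, and neither they nor the labels give a separate harvest day for the Col seedlings of that experiment. Every replicate gave 1 input library and 1 library treated with the methyltransferase MjDim1, whose label on m6A is read as a mutation in sequencing (m6A-SAC-seq), and levels below are from input libraries unless stated. With 2 libraries a group, both values are given in place of a standard deviation.

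The 18 tissue input libraries held 3355823 to 6903234 reads on genes, and the input libraries of the mta experiment 8911165 to 10782541. Input replicates of a tissue differed little more than by counting error (chi-square per degree of freedom 1.09 in flower to 1.64 in root). The p-values of the tissue tests below are measured against that small spread. Marker sums set root apart from the green tissues. The 5 root markers together reached 651 and 615 TPM (a level scaled to transcript length and library size) in root, 140 and 143 in seedling and at most 29.9 in the other tissues, and the 3 leaf markers reached 353 and 304 TPM in root against at least 18094 in each of the 7 tissues other than root and seed. Of the root markers, SCR was lower in root than in shoot (log2 fold change -0.28) and NRT2.1 did not pass the test between them (adjusted p = 0.367, edgeR). MTA was at 5.94 and 5.99 TPM in Col and 3.74 and 2.98 TPM in mta (log2 fold change -0.68, adjusted p = 0.0119, limma), and reads of the transgene and of the native gene cannot be told apart.

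The 10 genes were root transcripts. Their summed level was 490 and 506 TPM in the 2 root libraries, 60.2 and 65.3 TPM in the whole seedlings, 2.11 and 2.72 TPM in shoot, 2.68 and 2.78 TPM in flower and at most 1.11 TPM in any library of the other 5 tissues. No read of any of the 10 was counted in the input libraries of cauline or rosette leaf. In every gene both root libraries lay above both seedling libraries, and both seedling libraries lay above every library of the other 7 tissues with 1 exception, RHD2 in flower.

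**Figure D1:**
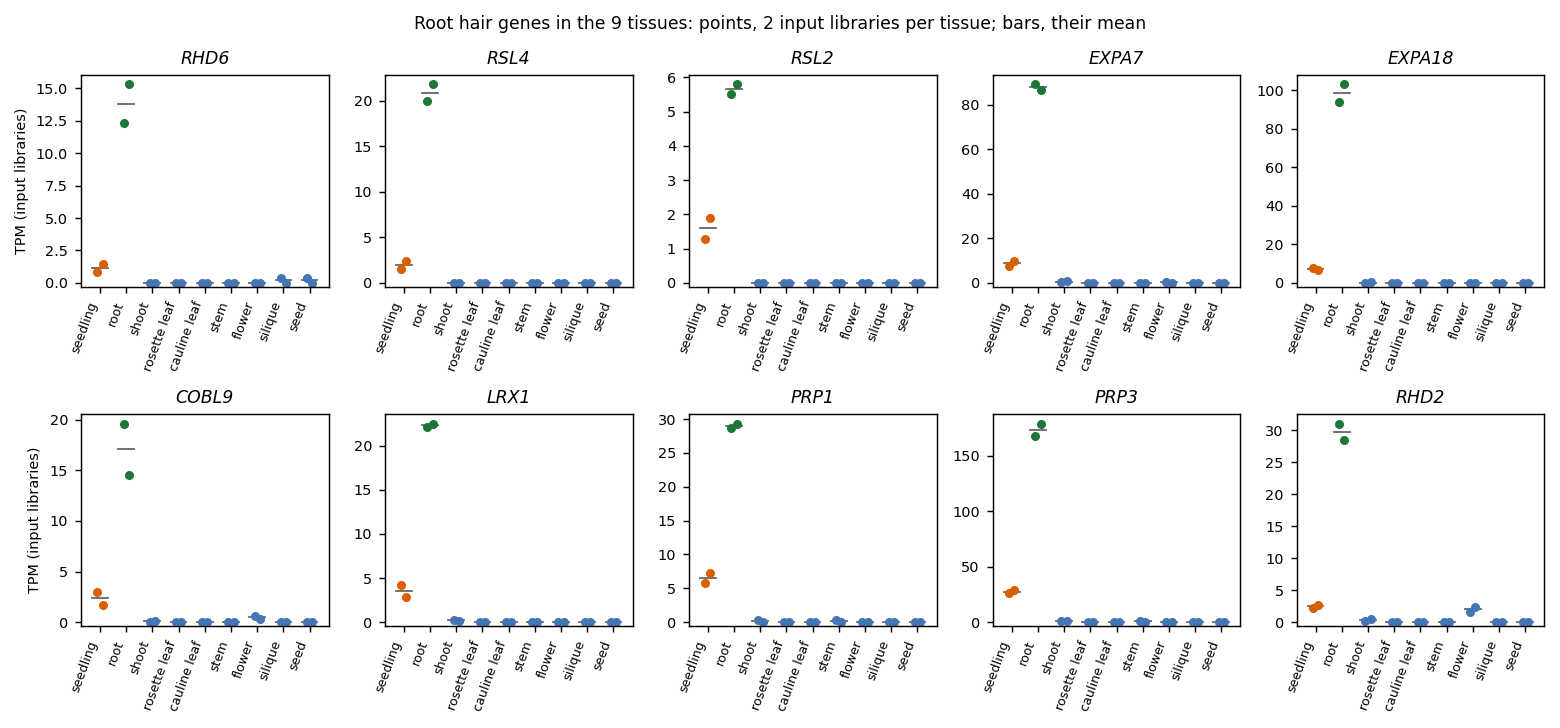
Level of each root hair gene (TPM, linear axis of its own in each panel) in the 2 input libraries of each of the 9 tissues, with a bar at their mean. In every panel the root libraries are highest, as for PRP3 at 168 and 179 TPM, followed by the seedling libraries, and the other tissues lie at or near 0 apart from RHD2 in flower.

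Among the transcription factors RHD6, which starts hair outgrowth, had 12.3 and 15.3 TPM in root from 67 and 71 reads. It had 0.832 and 1.43 TPM in seedling and no read in shoot, and the only other reads were 2 in silique and 2 in seed. RSL4, the main driver of hair elongation, stood at 20.01 and 21.8 TPM in root and 1.55 and 2.39 TPM in seedling. RSL2, which acts beside RSL4, was the lowest of the 10 in root at 5.52 and 5.79 TPM and had 1.29 and 1.89 TPM in seedling, a range that overlapped that of RHD6. RSL4 and RSL2 had 0 input reads in all 7 other tissues. Taking 3 reads over the 2 shoot libraries as the most that a count of 0 allows, root was at least 38.9-fold higher than shoot for RHD6, at least 55.6-fold for RSL4 and at least 15.5-fold for RSL2. These bounds and the intervals below cover counting error only.

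RHD2 (also RBOHC), the NADPH oxidase of the hair tip, had 31.0 and 28.5 TPM in root from 389 and 305 reads and 2.25 and 2.74 TPM in seedling. It had the most reads of the 10 in flower, at 1.52 and 2.44 TPM from 15 and 21 reads, a range that overlapped that of seedling. The treated flower libraries gave RHD2 60 and 37 reads. Root stood above flower by 14.6-fold for this gene (95% counting interval 10.45 to 21.0).

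COBL9, a glycosylphosphatidylinositol-anchored COBRA-like protein of the wall, had 19.6 and 14.5 TPM in root and 3.02 and 1.67 TPM in seedling. It was the other member with reads in both flower libraries, 4 and 2 in the inputs (0.590 and 0.338 TPM) and 10 and 11 in the treated libraries.

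The expansins EXPA7 and EXPA18, which loosen the wall, were the most abundant members after PRP3 in root. EXPA7 reached 89.0 and 86.7 TPM in root, 7.70 and 9.88 TPM in seedling and 0.317 and 0.616 TPM in shoot. EXPA18 reached 94.0 and 103 TPM in root, 7.59 and 6.498 TPM in seedling, and 1 read in the 2 shoot libraries together. With so few reads in shoot, the ratio of root to shoot had a wide counting interval, 196-fold for EXPA7 (95% interval 66.7 to 951) and 734-fold for EXPA18 (131 to 29008). The EXPA7 gene model shares 23 bases with AT1G12570 and the EXPA18 model 46 bases with AT1G62978, both on the opposite strand. The labels and methods used here do not say whether the counting used strand, so reads in these overlaps cannot be assigned with certainty.

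LRX1, a leucine-rich repeat extensin of the hair wall, had 22.1 and 22.5 TPM in root and 4.19 and 2.81 TPM in seedling. The proline-rich wall protein PRP1 had 28.7 and 29.3 TPM in root and 5.83 and 7.19 TPM in seedling. Its relative PRP3 was the most abundant of the 10 in both, with 168 and 179 TPM in root and 26.0 and 28.8 TPM in seedling. PRP3 had 4 reads in each shoot library (1.16 and 1.13 TPM). In stem it had 3 and 2 reads in the input and 17 and 12 in the treated libraries.

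These differences passed the test for all 10 genes. With edgeR's quasi-likelihood test over 21805 genes and Benjamini-Hochberg adjustment, all 10 were higher in root than in shoot, where 37.5% of all genes tested were called higher, and all 10 were higher in root than in the mean of the other 8 tissues, where 43.7% were. All 10 were also higher in seedling than in shoot (25.0% of all genes) and higher in root than in seedling (40.0% of all genes). RHD6, RSL4 and RSL2 had at most 11 reads in any input library outside root. They therefore passed the filter on low counts through their root libraries, which favours calls of higher in root. Without that filter all 10 genes were still called higher in each of these comparisons. The largest adjusted p of the 10 was 3.14e-13 (RSL2) for root against shoot, 0.00119 (RHD6) for seedling against shoot and 1.40e-04 (RSL2) for root against seedling. The median log2 fold change of the 10 genes was 7.54 for root against shoot and 2.98 for root against seedling, beside medians of 0 and 0.10 over all genes tested. Whole seedlings also hold shoot tissue. In root against seedling a smaller share of root, fewer hair cells and less RNA per hair cell therefore cannot be told apart.

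The step from root to whole seedling was not the same size for every gene. From summed reads scaled to library size (CPM), root stood above seedling by 14.2-fold for EXPA18 (95% counting interval 10.9 to 18.8), 12.3-fold for RHD6 (6.68 to 25.3), 12.2-fold for RHD2 (9.27 to 16.3), 10.8-fold for RSL4 (6.63 to 18.5) and 10.2-fold for EXPA7 (7.92 to 13.3). The other genes had smaller ratios: 7.54-fold for COBL9 (5.31 to 10.98), 6.51-fold for LRX1 (4.997 to 8.61), 6.43-fold for PRP3 (5.59 to 7.43), 4.53-fold for PRP1 (3.42 to 6.08) and 3.60-fold for RSL2 (2.01 to 6.87). The intervals of EXPA18 and RHD2 lay above those of LRX1, PRP3, PRP1 and RSL2. That of EXPA7 lay above those of PRP3, PRP1 and RSL2, and those of RHD6 and RSL4 above that of PRP1. Roots were 14 days old and seedlings 7 days old, and age and organ cannot be told apart in these ratios. The call of RSL2 in root against seedling, from 55 and 15 reads, was lost with DESeq2's Wald test (adjusted p = 0.0833).

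**Figure D2:**
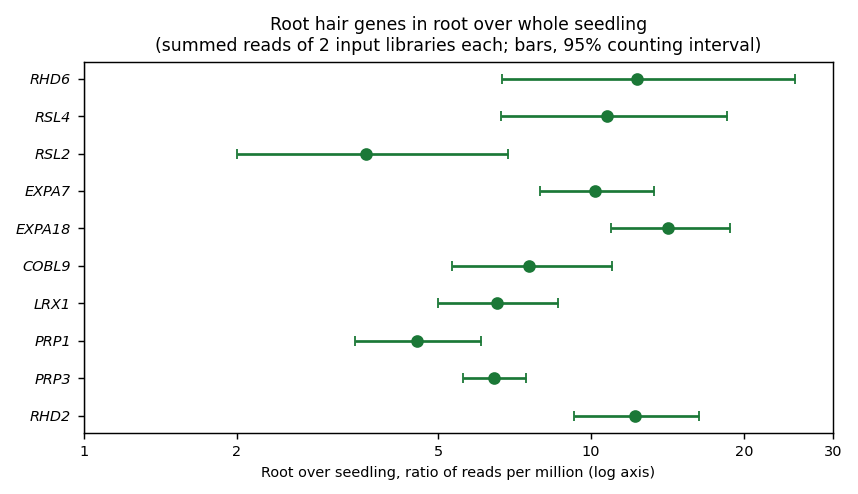
Ratio of root to seedling for each root hair gene, from summed CPM of 2 input libraries each (log axis), with bars for the 95% counting interval. The ratios run from 3.60 for RSL2 to 14.2 for EXPA18, and the intervals of those genes do not overlap.

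Further genes of the hair pathway were followed as lists in the same test, where 37.5% of all genes tested were called higher in root than in shoot. These lists were chosen with earlier results of these data known, so the counts are a description. Of 14 other root hair and wall genes, all 14 passed the filter on low counts and all 14 were higher in root than in shoot, with a median log2 fold change of 7.69. They included RHS13, a proline-rich protein, at 400 and 412 TPM in root and no read in shoot, and the peroxidase RHS18, at 59.1 to 65.6 TPM in root and no read in shoot. PRPL1, a proline-rich protein-like gene (log2 fold change 9.27), and RHS15, a putative glycerol-3-phosphate permease with no read in shoot, completed the 4 with the largest changes. Of 12 genes of tip growth 10 were higher in root than in shoot, but the median log2 fold change of the list was only 1.34. The 4 with the largest changes included the phosphatidylinositol phosphate kinase PIP5K3 (69 reads in root and none in shoot) and the ROP exchange factor GEF3 (log2 fold change 4.98). The kinase OXI1 (4.21) and the phosphatidylinositol transfer protein COW1 (3.84) completed them. RHD3, a GTPase of the endoplasmic reticulum, and the S-acyl transferase TIP1 did not pass the test (adjusted p = 0.827 and 0.902, edgeR).

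Of the 6 bHLH relatives 3 passed the filter, and all 3 were higher in root: LRL3 (log2 fold change 8.21), LRL2 (2.98) and LRL1 (2.86). The genes of epidermal cell fate, which act before RHD6, were mixed. Of 10, 8 passed the filter, 4 were higher and 2 lower in root than in shoot. Over all genes tested 37.5% were higher and 33.5% lower, so these counts do not set the list apart. GL3, a bHLH partner of the non-hair MYB factor (4.24), and CPC, a small MYB that promotes hair fate (3.72), were the highest. EGL3, another bHLH partner, was also higher (1.37), and TTG1, their WD40 partner, was lower (-0.93), while MYB23 and TRY did not pass the test. As background, several of these fate genes also act in the trichomes of the shoot.

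Relatives of the members were mixed. Of 14 paralogs 13 passed the filter, 2 were higher in root than in shoot, 6 were lower and 5 did not pass the test, with a median log2 fold change of -0.13, where 33.5% of all genes tested were lower in root. Among those 5 were genes with no read in root or shoot, which passed the filter through other tissues and could not be called either way. The median includes them at a fold change of 0. PRP2 and PRP4, relatives of PRP1 and PRP3, were lower in root, with log2 fold changes of -6.55 and -6.22. PRP4 had 5.29 and 4.61 TPM in root and 412 and 398 TPM in shoot, the reverse of PRP3. PEX3 (AT2G15880), an extensin relative of LRX1, was also lower (-4.59), and the oxidase RBOHF, a relative of RHD2, was higher (2.59).

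**Figure D3:**
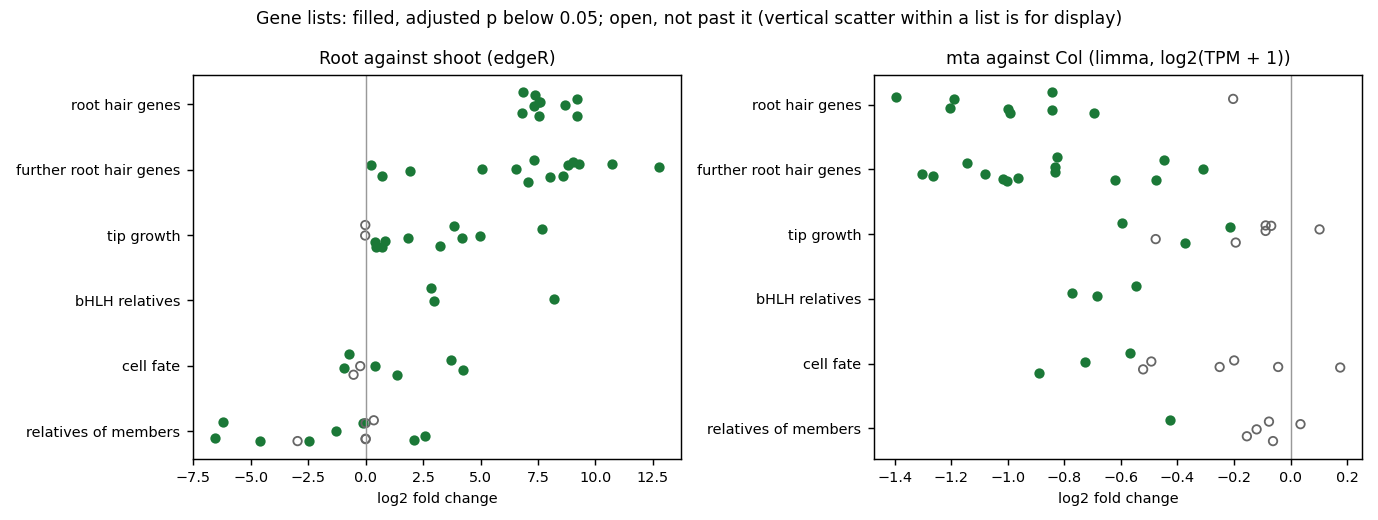
Log2 fold change of each gene that passed the filter, by list, in root against shoot (left, edgeR) and in mta against Col seedlings (right, limma on log2(TPM + 1)), with filled points for an adjusted p below 0.05. All 10 root hair genes lie to the right in root and 8 of 9 are called lower in mta, while the relatives of the members lie on both sides of 0. Fold changes of genes with no read in shoot depend on the prior count of the fit.

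Across the 18 input libraries the members had pairwise Pearson r of log2 CPM of 0.843 to 0.996 (median 0.968). The genes most like the mean profile of the 10 were MLP-300B, a myrosinase-binding protein-like gene (r = 0.997), RHS12 (0.997), MRH6 (0.997), RHS18 (0.996), RHS13 (0.996), BGLU34 (0.996), AT2G47540 (0.996) and PRPL1 (0.996). Of genes that are no members 75 had r above 0.99. The libraries fall into 9 organs and the root and seedling libraries set most of these values, so they describe the organ profile and were not tested.

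In mta seedlings the hair genes were lower. Both mta libraries lay below both Col libraries for 8 of the 10, and the summed level of the 10 genes was 402 and 396 TPM in Col and 173 and 177 TPM in mta, a ratio of means of 0.439. Without PRP3, which made up the largest part, the ratio was 0.449. With limma on log2(TPM + 1) over 18420 genes, 8 of the 9 members with a mean of at least 1 TPM were lower, beside 20.6% of all genes called lower and 6.31% called higher. That split depended on scaling: with edgeR on the reads recovered from the TPM values, 14.6% of all genes were lower and 16.3% higher, and the median log2 fold change of all genes was -0.01 in place of -0.14. The same 8 members were lower under both.

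**Figure D4:**
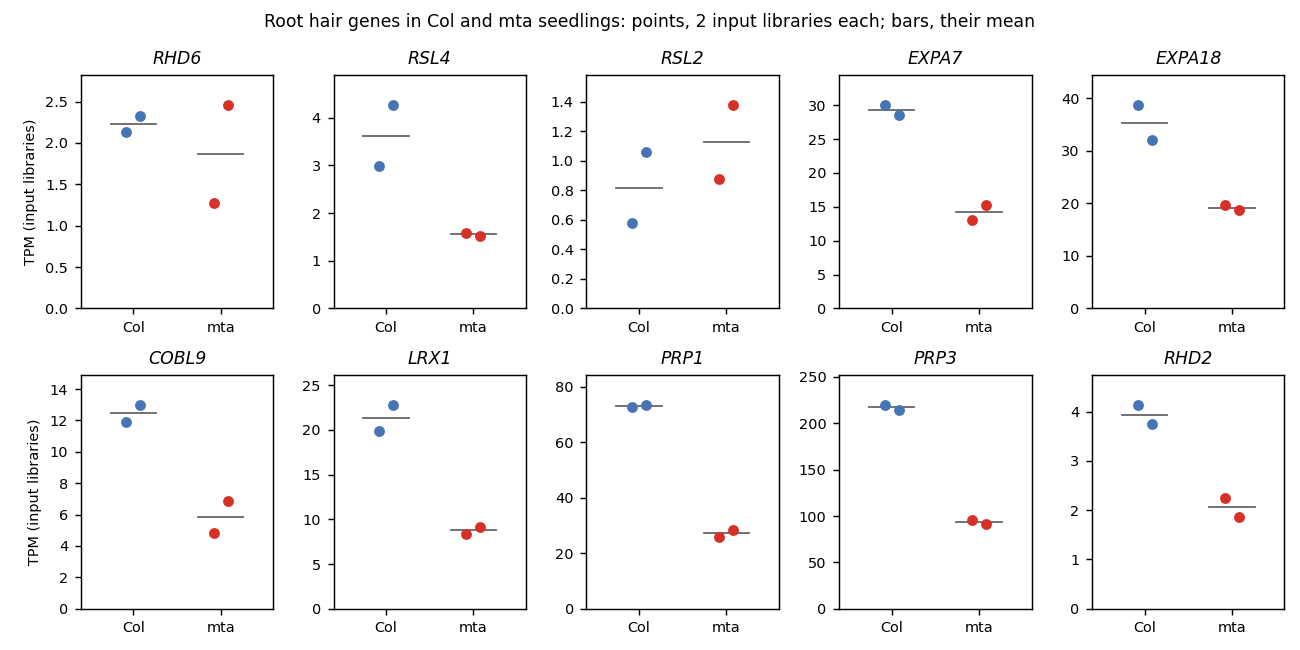
Level of each root hair gene (TPM, axis from 0) in the 2 Col and the 2 mta input libraries, with a bar at their mean. The mta points lie below the Col points in 8 panels, as for PRP3 with 219 and 215 TPM in Col and 95.6 and 91.6 TPM in mta, and overlap them for RHD6 and RSL2.

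On the log2(TPM + 1) scale, which understates the change of low genes, the largest falls were among the wall genes. PRP1 went from 72.6 and 73.3 TPM in Col to 25.9 and 28.4 TPM in mta (log2 fold change -1.39, SE 0.06, adjusted p = 1.48e-05). PRP3 went from 219 and 215 TPM to 95.6 and 91.6 TPM (-1.21, SE 0.04, adjusted p = 4.82e-06), and LRX1 from 19.9 and 22.7 TPM to 8.35 and 9.18 TPM (-1.19, SE 0.10). EXPA7 had 30.0 and 28.6 TPM in Col and 13.1 and 15.3 TPM in mta (-0.9997, SE 0.09). COBL9 (11.9 and 13.0 TPM against 4.80 and 6.85) and EXPA18 (38.7 and 32.0 TPM against 19.7 and 18.7) had log2 fold changes of -0.99 and -0.84. These 6 genes kept an adjusted p below 0.05 in all 10 alternatives, which ranged up to 0.0144 (COBL9). The order of the falls depended on the scale. With edgeR on recovered reads PRP1 (-1.26) and LRX1 (-1.13) fell most, followed by the regulator RSL4 (-1.08) and PRP3 (-1.05). COBL9 (-0.94), EXPA7 (-0.88), the oxidase RHD2 (-0.77) and EXPA18 (-0.71) came after them.

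The regulators and the oxidase were lower in level and their calls less firm. RSL4 had 2.98 and 4.26 TPM in Col and 1.58 and 1.53 TPM in mta (log2 fold change -0.84, SE 0.19, adjusted p = 0.0159), and RHD2 had 4.13 and 3.75 TPM against 2.25 and 1.86 TPM (-0.69, SE 0.16, adjusted p = 0.0166). Over the alternatives the adjusted p of RSL4 ranged from 0.00379 to 0.0995, with the call lost in the treated libraries and without Col replicate 2, mta replicate 1 or mta replicate 2 (0.0968, 0.0536 and 0.0562). That of RHD2 ranged from 3.13e-04 to 0.0858, with the call lost without Col replicate 1 or mta replicate 2 (0.0858 and 0.0692). RHD6, which acts before them, had 2.13 and 2.33 TPM in Col and 1.27 and 2.46 TPM in mta, and its log2 fold change of -0.20 (SE 0.23, adjusted p = 0.562) did not pass the test and turned to 0.10 without mta replicate 1. RSL2 was below a mean of 1 TPM, with 0.58 and 1.06 TPM in Col and 0.87 and 1.38 TPM in mta, and was not fitted.

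The further lists were counted in the same fit, where 20.6% of all genes were called lower (14.6% with edgeR on recovered reads). The lists were chosen with earlier results of these data known, so their counts describe them and are no independent support. All 14 of the other root hair and wall genes were lower in mta (median log2 fold change -0.90, and 13 of 14 with edgeR on recovered reads), with PRPL1 at 112 and 106 TPM in Col and 43.6 and 43.5 TPM in mta. All 3 fitted bHLH relatives were lower, LRL3 from 5.19 and 6.01 TPM to 2.96 and 2.76 TPM. Of 9 fitted genes of tip growth 3 were lower, of 9 of cell fate 3 were, and of 6 relatives of the members 1 was, with none called higher. With edgeR on recovered reads 2 of 11 genes of tip growth were lower and 1 higher, 2 of 10 of cell fate were lower, and of the 6 relatives 1 was lower and 3 were higher. PRP4 stayed at 1017 and 1000 TPM in Col and 1025 and 1041 TPM in mta, and its log2 fold change of 0.04 (adjusted p = 0.221) did not pass the test, although with edgeR on recovered reads it was called higher (0.20).

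Some markers of whole organs moved in the same samples, and not all of a list moved together. The 5 root markers summed to 115 and 117 TPM in Col and 76.9 and 79.1 TPM in mta, a ratio of means of 0.674, and 2 of the 3 that were fitted were lower, the phosphate transporter PHT1;1 and the endodermal CASP1. SCR was not, with 21.3 and 22.2 TPM in Col and 20.2 and 21.8 TPM in mta. The 3 leaf markers summed to 67246 and 66985 TPM in Col and 74723 and 74820 TPM in mta. RBCS1A carried that rise, from 30064 and 30115 to 38821 and 39001 TPM. LHB1B1 went down, from 8273 and 8217 to 7006 and 7035 TPM, and the values of CAB1 overlapped. The 3 seed markers summed to 27.9 and 27.7 TPM in Col and 19.6 and 16.7 TPM in mta, most of it CRA1, while the values of OLEO1 overlapped. The part of a different share of root tissue in the fall of the hair genes was not tested. A lower share of root, fewer hairs and less RNA per hair cannot be told apart in whole seedlings. Age was not tested either, as mta was taken at 8 days and no separate harvest day is given for these Col seedlings. Wild-type seedlings also differed between the experiments. The members summed to 60.2 and 65.3 TPM in the 7-day seedlings of the tissue series and 402 and 396 TPM in these Col seedlings. That gap was not tested.

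m6A was then read at single bases. The deposited site values pool the replicates of a tissue, and the authors calibrated each fraction on spike-in probes, so each fraction is 1 value with no replicate error and no test. A site was counted in a tissue when it carried the authors' mark and had at least 20 reads. The 10 genes held 19 listed sites in the tissues, of which 18 counted in root, in 7 of the 10 genes: 7 in RHD2, 3 in RHD6, 2 each in EXPA7, EXPA18 and PRP1, and 1 each in LRX1 and RSL4. RSL2, COBL9 and PRP3 had no listed site in the tissues. Over all genes listed 39.0% had a root site. Among genes within 2-fold of a member's level in the treated root libraries the share was higher, from 61.9% (RSL2) to 89.1% (PRP1). In seedling 2 sites counted, 1 in EXPA7 and 1 in PRP1, and only 4 of the 19 sites had 20 reads there. In the other 7 tissues no member site had more than 10 reads, so m6A on these transcripts was not detectable there at this depth.

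The windows that follow show the 4 sites with the highest fractions in root and the others that were listed in both experiments, 10 bases to each side of the adenosine, from RefSeq TAIR10.1, whose nuclear sequence matched the deposited motif at 100% of sites of both tables on the 5 nuclear chromosomes. They are written 5′ to 3′ on the transcript strand, with the 5-base motif around the methylated A in capitals.
RHD2, coding sequence, chr5:20760865-20760885, minus strand: cagaggctTAAGCctacgttt
RHD6, coding sequence, chr1:24796498-24796518, plus strand: aaggaggaAAAGCtcctgaca
RHD6, 3′ UTR, chr1:24796624-24796644, plus strand: agtttatcAAACAttaattac
LRX1, 3′ UTR, chr1:4072501-4072521, plus strand: agaaaaaaAGACAttccagtt
EXPA7, coding sequence, chr1:4277637-4277657, plus strand: gctccggcTAACTggagcggc
EXPA18, coding sequence, chr1:23332847-23332867, plus strand: cactcgtcAGACCatttacgc
PRP1, coding sequence, chr1:20505996-20506016, plus strand: gatccaacTGACTttaaggga
PRP1, 3′ UTR, chr1:20506423-20506443, plus strand: tcattgttTGACTtatgcgag
RSL4, 3′ UTR, chr1:9655873-9655893, plus strand: caaactaaAGAGAtctacgct

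In root the RHD2 coding site (TAAGC) had a fraction of 1.00 at 102 reads, and it was the only member site at that value. The 2 RHD6 sites near the stop codon, AAAGC in the coding sequence 90 bases before the end of the stop codon and AAACA in the 3′ UTR 36 bases after it, had fractions of 0.69 at 91 reads and 0.52 at 51 reads. LRX1 had 0.44 at 331 reads for AGACA in its 3′ UTR. The EXPA7 coding site (TAACT) had 0.31 at 592 reads, the EXPA18 coding site (AGACC) 0.13 at 633 reads and the PRP1 coding site (TGACT) 0.11 at 198 reads. The single RSL4 site, AGAGA in the 3′ UTR, had 0.10 at 136 reads.

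Motifs differ in how high their fractions run in this assay. Over all root sites the median fraction was 0.62 for TAAGC, 0.72 for AAAGC, 0.54 for AAACA, 0.68 for TAACT, 0.24 for AGACA, 0.20 for AGACC, 0.41 for TGACT and 0.13 for AGAGA, and 23.1% of TAAGC and 26.6% of TAACT sites were listed at 1. Of the 9 sites shown, those of RHD2 and LRX1 lay above the median of their motif and the other 7 below it.

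**Figure D5:**
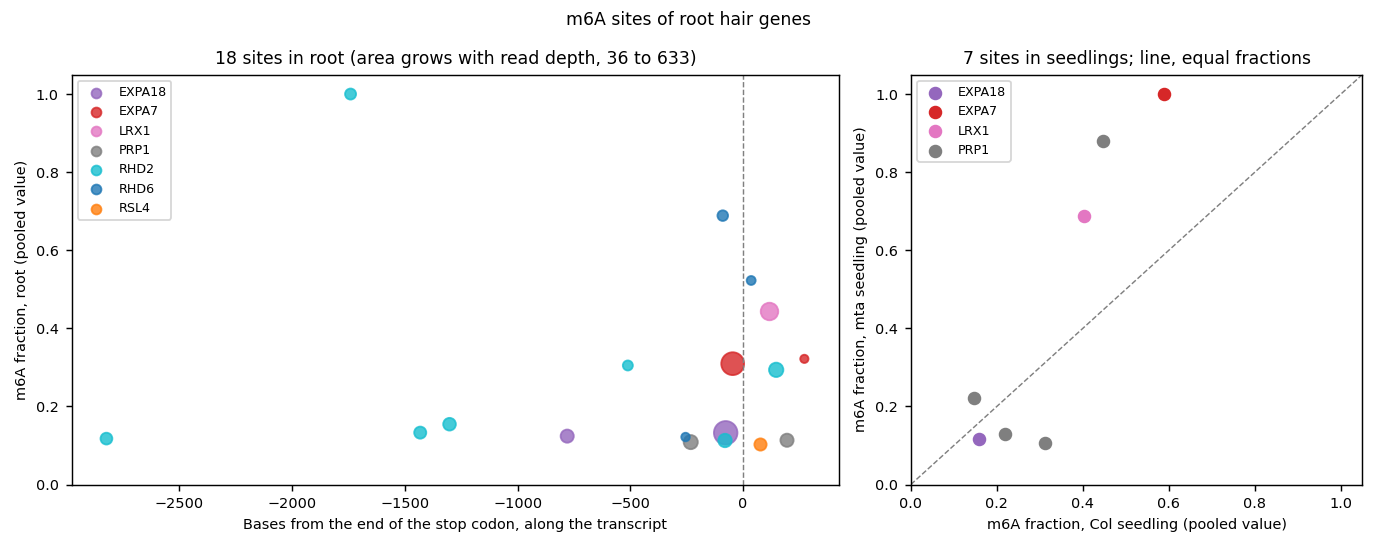
Left, m6A fraction in root of the 18 counted sites against the distance in bases from the end of the stop codon along the transcript, with point area growing with read depth. Right, fraction in mta against Col seedlings for the 7 sites with 20 reads in both and at least 0.1 in Col, with a line at equal fractions. In root, 12 sites lie before the stop codon's end, and in seedlings 4 points lie above the line and 3 below.

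The member sites lay more in coding sequence than root sites at large. Of the 18, 10 were in coding sequence, 6 in 3′ UTR and 2 in 5′ UTR, where over all 44109 root sites 30.6% were in coding sequence, 65.0% in 3′ UTR and 1.71% in 5′ UTR. Their median fraction was 0.14, beside 0.40 over all root sites, and for the 6 sites in 3′ UTR it was 0.31, beside 0.53. Of the 18 motifs 13 were of the DRACH class (A, G or T, then A or G, then the methylated A, then C, then A, C or T), a share of 72.2% beside 56.0% over all root sites. Sites of 1 gene share its reads, so the 18 are not independent, and 7 of them came from RHD2 alone.

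The members without a root site included the one with the most reads. PRP3 had 4135 reads in the 2 treated root libraries and no listed site, where 85.3% of the 1449 genes within 2-fold of its level had at least 1 root site. COBL9 had 677 treated reads and no root site beside 84.8% of genes of like level. RSL2, with 154 treated reads and 61.9% of like genes with a site, was the least covered. The DRACH motif occurs 16 times in the 1221 bases of PRP3, but not in its 3′ UTR of 223 bases, and 42 times in the 2261 bases of COBL9, with 1 in its 3′ UTR of 137 bases. In RHD2 it occurs 70 times in 3289 bases and in RHD6 31 times in 1426 bases. A motif is only a possible position, and these counts describe the sequence.

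Where seedling had depth its fractions could be set beside root. The EXPA7 coding site was 0.31 in root and 1.00 at 41 reads in seedling, and the PRP1 coding site was 0.11 in root and 0.23 at 33 reads in seedling. The LRX1 site was 0.44 in root and 0.28 at 26 reads without the mark in seedling, and the EXPA18 coding site 0.13 and 0.16 at 31 reads, also without it. These are pooled single values on unequal depth, and no difference was tested.

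In the mta experiment 13 member sites were listed, 6 of them also in the tissue table. COBL9, with no site in root, had 3 there, and of these AAACC in its coding sequence counted in Col with a fraction of 1.00 at 28 reads, beside 0.00 at 7 reads in mta. In root 54.1% of AAACC sites of all genes were listed at 1. Over the experiment 8 sites in 5 members counted in Col and 5 sites in 4 members in mta. PRP3 and RSL2 again had none, and RHD2 and RHD6, which were at low level in these seedlings, had none listed.

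Member sites were mixed in mta. Of the 7 with at least 20 reads in both genotypes and a fraction of at least 0.1 in Col, 3 were lower in mta and 4 higher (42.9% lower), with a median difference of 0.07, where 65.1% of the 24583 such sites of all genes were lower and the median difference was -0.06. Choosing sites by their fraction in Col favours a fall in mta, so neither share is a measure of direction. The rule left out AGAGC of EXPA18, with 0.03 in Col (77 reads) and 0.15 in mta (54 reads). The fraction of the EXPA7 coding site was 0.59 in Col (72 reads) and 1.00 in mta (43 reads), and that of the LRX1 3′ UTR site 0.40 (75 reads) and 0.69 (37 reads). PRP1 had sites on both sides: TAACC in its coding sequence went from 0.45 to 0.88 and TGACT from 0.15 to 0.22, while the 2 sites in its 3′ UTR went from 0.22 to 0.13 and from 0.31 to 0.11. The EXPA18 coding site had 0.16 in Col and 0.12 in mta. The 7 sites lie in 4 genes, their depth was 24 to 61 reads in mta and 46 to 168 in Col, and no difference was tested.

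The promoters of these genes have been studied for the root hair element, a short sequence bound by RSL4 that was first described in promoters of root hair expansins. Its consensus was searched on both strands from 250 bases before to 50 bases after the annotated start, with a spacer of either length. It was found in 5 of the 10 members and in 0.867% of the 27444 protein-coding promoters. Since the consensus came from genes of this kind, the share among members is not independent of the choice of genes. The matches are given in the direction of the motif, with its CACG core in capitals.
EXPA7, chr1:4276427-4276443, plus strand: atagtgatccgCACGta
EXPA18, chr1:23331523-23331538, plus strand: aacatgaacgCACGtc
LRX1, chr1:4069899-4069914, minus strand: aacttggacgCACGtt
PRP1, chr1:20504772-20504788, minus strand: atagtgttatgCACGat
PRP3, chr3:23182555-23182571, minus strand: taagtgtaatgCACGat

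The match lay 78 bases before the start in EXPA7, 40 in EXPA18, 93 in LRX1, 129 in PRP1 and 167 in PRP3, and EXPA18 held a second match 5 bases after its start. All 5 are wall proteins, and no match was found in this window for RHD6, RSL4, RSL2, RHD2 or COBL9. In level the 5 ranged from 22.3 TPM (LRX1) to 173 TPM (PRP3) in root as means of 2 libraries, and the 5 without a match from 5.66 (RSL2) to 29.8 TPM (RHD2). A match to the letters is a description of the sequence and not a bound site.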

How the data were processed

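m6A-SAC-seq libraries of Arabidopsis Col-0 tissues (36 libraries) and of Col and mta seedlings (8) were used as deposited, with groups from the sample labels. Reads had been mapped by the authors to TAIR10 with the m6A-SACseq pipeline, and for the aligner, the counter and their versions the labels and methods used here name none. For the tissues the deposited values were counts per gene, from which TPM was computed with the deposited gene length. For the mta experiment the deposited values were TPM. Multiplied by length, 100% of values under 50 reads were whole within 0.05, so reads could be recovered. The m6A fraction of a site, with its depth and mark, was deposited by the authors as 1 pooled value per tissue or genotype, calibrated on spike-in probes by motif.

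Tissue counts of the 18 input libraries (3355823 to 6903234 reads) were tested with edgeR 4.0.16 (quasi-likelihood, TMM, filterByExpr) in R 4.3.3. The TPM values were tested with limma 3.58.1 (trend) on log2(TPM + 1), over genes whose mean reached 1 TPM. A fold change on that scale understates the change of low genes. Adjusted p-values are Benjamini-Hochberg over all genes tested, with calls at 0.05. Scripts were tested on simulated data. Alternatives were DESeq2 1.42.0, other normalization, filters, pseudocounts and depth minimums, treated libraries, a replicate block and leaving out each library. All 10 root hair genes are named. Of each further list up to 4 genes past the threshold with the largest change in root against shoot and up to 2 that missed it are named, and the 8 genes most like the members in profile. Members and lists were chosen with earlier results of these data known. Sequences came from RefSeq TAIR10.1.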

Additional observations from a re-analysis of the deposited data

How the results depend on the processing

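All 10 root hair genes kept their direction in the 4 tissue comparisons under every alternative run, and 919 of 920 values kept their call, the exception being RSL2 in root against seedling with DESeq2. In mta against Col 83 of 90 values kept direction and call, 6 lost the call (RSL4 in 4 alternatives and RHD2 in 2) and RHD6 changed sign in 1: leaving out each library in turn it ranged from -0.51 without mta replicate 2 to 0.10 without mta replicate 1 (adjusted p = 0.783 in the latter, limma), and its lowest value over all alternatives was -0.76, in the treated libraries. Leaving out each library in turn gave 14507 to 15716 genes called for root against shoot, 14492 to 15872 for root against the other 8 tissues, 8232 to 10015 for seedling against shoot, 14564 to 15832 for root against seedling and 3601 to 3705 for mta against Col, and the other settings stayed within 1.5 times of the reported counts. Samples with the same replicate number did not deviate together (r from -0.03 to 0.03 over 36 pairs of tissues, and 0.06 for Col and mta), so no pairing was seen. In the tissues, input replicates differed little more than by counting error, so this check could hardly have seen a pairing there. With the replicate block 15447, 15671, 9909, 15580 and 4766 genes were called in these comparisons, in place of 15482, 15675, 9960, 15623 and 4956. The count of 7 members with a root site was the same at depth minimums of 10, 20 and 50 reads and without one. With 2 libraries a group, and at most 29 reads of RSL2 in an input library of root, small differences of these genes were not detectable, and site fractions carry no replicate error.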

Other observations

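Several relatives of the members had their reads in flower, with few or none in root. They were picked out after their values were seen. COBL10, a relative of COBL9, had 54.0 and 59.7 TPM in the 2 flower input libraries and no read in root, seedling or shoot, and COBL11 had 6.19 and 4.73 TPM in flower and no read in those 3. RBOHH, a relative of RHD2, had 3.396 and 3.89 TPM in flower, from 32 reads in each library, and no read in root, seedling or shoot. Of the leucine-rich repeat extensins related to LRX1, AT4G33970 had 49.4 and 50.9 TPM in flower and no read in root, and AT2G15880 had 122 and 111 TPM in flower and 2.33 and 2.27 TPM in root.

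The make-up of the 10 transcripts differed between the 2 experiments. Within each library PRP1 stood at 0.322 and 0.338 times EXPA7 (ratio of TPM) in root, 0.757 and 0.728 times in the 7-day seedlings, 2.42 and 2.56 times in Col seedlings and 1.98 and 1.86 times in mta seedlings. PRP3 made up 34.3% and 35.3% of the summed TPM of the 10 in root, 43.1% and 44.1% in the 7-day seedlings and 54.5% and 54.3% in Col. The tables were made separately, so these ratios are a description and were not tested.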
